A study of Homo sapiens with 6 samples.

Results

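The IFIT family (interferon-induced proteins with tetratricopeptide repeats) was followed in NB4 cells, a human cell line derived from acute promyelocytic leukemia. The members were chosen by symbol as IFIT1, IFIT2, IFIT3 and IFIT5, that is 4 of the 23368 gene symbols for which reads were counted. RNA-seq was performed on total RNA from not treated (n.t.) NB4 cells and from NB4 cells exposed to 10 µM maltonis for 24 h, with 3 biological replicates per group and 1 library per replicate. Maltonis, a small molecule made by synthesis from a maltol scaffold, was added from an aqueous stock. The labels do not say whether the n.t. cells received the solvent alone. Both groups were grown in the same serum-containing medium, and both come from a single cell line, which already carries the genetic lesions of its leukemia.

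IFIT proteins are among the most strongly induced products of the type I interferon response. An infected or stressed cell detects foreign or misplaced nucleic acid, interferon is secreted, its receptor activates JAK kinases, and a complex that holds STAT2 and IRF9 switches on target genes by binding a short promoter element. The IFIT proteins then bind RNA: IFIT1 holds RNA whose cap lacks the methyl group found on the host's own messages and blocks its translation, IFIT3 binds and stabilises IFIT1, IFIT2 joins them in a complex and has been linked to apoptosis, and IFIT5 binds RNA ends that carry phosphate groups. IFIT1 and IFIT2 also bind the initiation factor eIF3. In blood cells these transcripts are kept low until an interferon or a nucleic acid sensor is engaged.

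The 4 genes lie in a cluster on the plus strand of chromosome 10, within 137308 bp. On GRCh38, IFIT2 (ENSG00000119922.9) is annotated at chr10:89283694-89309276, IFIT3 (ENSG00000119917.13) at chr10:89327894-89340971, IFIT1 (ENSG00000185745.9) at chr10:89392546-89406486 and IFIT5 (ENSG00000152778.8) at chr10:89414586-89421001. These positions and identifiers are from GENCODE 29, whereas the submitters' processing notes name hg19 and the counts themselves carry symbols only. Promoter windows are shown for IFIT1, IFIT3 and IFIT5, which share there the letters of the element used by the interferon response. No window was at hand for IFIT2. Each window runs 5′ to 3′ from 250 bases before to 50 bases after a RefSeq transcription start (GRCh38.p14, plus strand), and capitals mark matches of GAAA and GAAA spaced by any 2 bases, the core of the interferon-stimulated response element, read on either strand. The windows are chr10:89392373-89392672 for IFIT1, chr10:89327747-89328046 and chr10:89332279-89332578 for the 2 starts of IFIT3, and chr10:89414318-89414617 for IFIT5. The window of IFIT1B, a paralog in the same cluster that was not chosen as a member, is chr10:89377806-89378105 and is given for contrast.
IFIT1: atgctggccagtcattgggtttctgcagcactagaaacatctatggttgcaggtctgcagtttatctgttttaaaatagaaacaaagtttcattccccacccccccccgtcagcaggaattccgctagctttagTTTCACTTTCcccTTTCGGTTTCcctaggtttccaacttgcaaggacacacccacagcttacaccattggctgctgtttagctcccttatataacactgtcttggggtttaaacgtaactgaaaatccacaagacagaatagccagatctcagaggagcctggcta
IFIT3, first start: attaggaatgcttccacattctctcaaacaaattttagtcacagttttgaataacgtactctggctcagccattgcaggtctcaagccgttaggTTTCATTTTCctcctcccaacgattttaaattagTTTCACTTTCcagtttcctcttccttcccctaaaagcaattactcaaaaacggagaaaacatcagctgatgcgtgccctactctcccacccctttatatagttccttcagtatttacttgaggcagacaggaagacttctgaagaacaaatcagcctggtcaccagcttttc
IFIT3, second start: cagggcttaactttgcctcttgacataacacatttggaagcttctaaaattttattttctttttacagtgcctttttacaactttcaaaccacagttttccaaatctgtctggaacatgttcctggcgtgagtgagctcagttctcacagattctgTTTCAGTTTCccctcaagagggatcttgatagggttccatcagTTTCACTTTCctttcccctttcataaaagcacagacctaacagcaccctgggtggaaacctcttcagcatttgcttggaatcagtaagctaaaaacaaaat
IFIT5: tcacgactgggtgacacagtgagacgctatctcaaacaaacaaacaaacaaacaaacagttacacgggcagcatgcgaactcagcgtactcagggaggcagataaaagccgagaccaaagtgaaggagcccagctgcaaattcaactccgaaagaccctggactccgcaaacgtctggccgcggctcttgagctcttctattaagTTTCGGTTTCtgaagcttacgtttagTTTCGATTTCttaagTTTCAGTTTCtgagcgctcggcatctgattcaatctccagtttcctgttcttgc
IFIT1B: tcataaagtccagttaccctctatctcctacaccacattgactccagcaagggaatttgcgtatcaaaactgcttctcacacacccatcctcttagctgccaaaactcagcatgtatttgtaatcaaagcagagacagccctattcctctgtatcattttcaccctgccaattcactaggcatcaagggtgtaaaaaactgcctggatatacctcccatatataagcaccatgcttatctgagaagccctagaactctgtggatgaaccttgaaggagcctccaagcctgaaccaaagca

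The window of IFIT1 held 2 matches, whose first bases lie 116 and 103 bases before the start. Each window of IFIT3 also held 2, at 156 and 122 bases before the first start and at 94 and 51 bases before the second. The window of IFIT5 held 3 matches, at 45, 19 and 4 bases before its start, so that they sit closer to the start than those of IFIT1. Every match in these windows was on the minus strand, and no match overlapped another. Of 34796 RefSeq windows of the same length, 1243 (3.57%) held at least 1 match, 91 (0.262%) held 2 or more and 13 (0.0374%) held 3 or more. The IFIT1B window held none. The letters were not particular to the family: of the OAS and MX genes, the OAS3 window held 2 matches and windows of MX1 at most 1 each. The OAS1 window held 0, and OAS1 rose by 3.62 on the log2 scale. For OAS2, OASL and MX2 no window was at hand. The part of these matches in the rise of the genes was not tested. TTCNNNGAA, the letters of a STAT dimer site, was in no window of IFIT1, IFIT3, IFIT5 or IFIT1B and in 7.67% of all windows. A match is a run of letters and not a measured binding site.

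The libraries held between 18492154 and 38205483 counts, and levels are given in CPM, a gene's counts scaled to one common library total. The count floor used here, 3 counts, is between 0.0785 and 0.162 CPM at these depths. The smallest count of a member was 119, for IFIT5 in n.t. replicate 1 (95% exact Poisson interval 98.6 to 142, counting error only). In a bulk sample, fewer cells expressing a gene and less of its RNA per cell cannot be told apart.

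All 4 IFIT transcripts were low in n.t. cells and higher in every maltonis-treated library. Levels are given as CPM scaled by TMM (trimmed mean of M-values), and differences come from the quasi-likelihood test of edgeR over 13209 genes, adjusted by Benjamini-Hochberg to a false discovery rate (FDR). A gene is counted as higher or lower when its FDR is under 0.01, and the study's own criteria add a change beyond 2.5-fold (their log2 limit, rounded) and, in the treated group, an RPKM (CPM divided by the exon length in kilobases) above 10. Each member had groups that did not overlap, which was true of 38.8% of all genes tested in that direction. With FDR and fold together, all 4 members were higher, against 9.96% of all genes tested. With RPKM added, all 4 were still called, against 1.96%.

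IFIT1, the member that recognises RNA lacking host cap methylation, was at 6.92, 6.24 and 6.09 CPM in n.t. replicates 1, 2 and 3 and at 87.6, 94.8 and 95.4 CPM after maltonis. The lowest treated library was 12.7-fold above the highest n.t. library. IFIT1 rose from 6.42 ± 0.444 to 92.6 ± 4.34 CPM (mean ± SD, n = 3), and its log2 fold change was 3.86 (SE 0.0823, 14.5-fold, edgeR FDR 1.92e-08), and it ranked 129 of the genes tested by log2 fold change.

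IFIT3, the partner that stabilises IFIT1, was at 6.82, 7.95 and 7.57 CPM in n.t. cells and at 89.9, 92.9 and 94.2 CPM after maltonis. The treated libraries of IFIT3 were the most alike of the family, and the groups were separated by 11.3-fold between the nearest libraries. IFIT3 rose from 7.44 ± 0.576 to 92.3 ± 2.18 CPM (mean ± SD, n = 3), and its log2 fold change was 3.62 (SE 0.0791, 12.3-fold, edgeR FDR 1.92e-08).

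IFIT2, the member linked to apoptosis, was at 7.93, 9.0 and 8.74 CPM in n.t. cells and at 84.4, 89.9 and 93.9 CPM after maltonis. Its groups did not overlap, and the nearest libraries differed by 9.39-fold. IFIT2 rose from 8.56 ± 0.554 to 89.4 ± 4.76 CPM (mean ± SD, n = 3), and its log2 fold change was 3.38 (SE 0.0815, 10.4-fold, edgeR FDR 2.05e-08).

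IFIT5, the member that binds RNA ends with phosphate groups, was at 6.34, 5.30 and 4.46 CPM in n.t. cells and at 43.4, 48.4 and 46.8 CPM after maltonis. Its groups did not overlap either, with 6.84-fold between the nearest libraries, but its treated level lay under that of each other member in every library. IFIT5 rose from 5.37 ± 0.939 to 46.2 ± 2.60 CPM (mean ± SD, n = 3), and its log2 fold change was 3.13 (SE 0.121, 8.75-fold, edgeR FDR 1.21e-07). The spread of IFIT5 over n.t. libraries, a coefficient of variation of 17.5%, was above the 8.24% that counting alone gives, whereas for IFIT1, IFIT2 and IFIT3 the n.t. values of 6.93%, 6.48% and 7.73% were near the counting values of 7.54%, 6.64% and 7.13%. In treated libraries the coefficient of variation was 4.69% for IFIT1, 5.32% for IFIT2 and 5.63% for IFIT5. Counting alone gives 2.06%, 2.10% and 2.92% there. For IFIT3 it was 2.37% against a counting value of 2.06%. A log2 fold change at or above that of IFIT5 was seen in 231 genes, the family included.

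**Figure D1:**
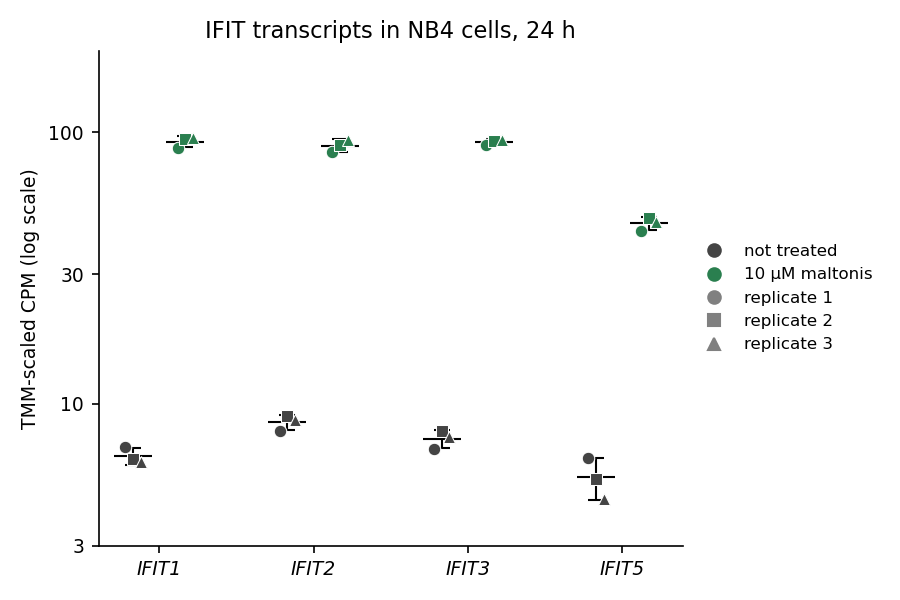
TMM-scaled CPM (log axis) of the 4 IFIT genes in each library, not treated in grey and 10 µM maltonis in green, with symbols for replicates and black bars for the mean ± SD (n = 3). The n.t. libraries lie between 4.46 and 9.0 CPM, and the treated libraries between 84.4 and 95.4 CPM for IFIT1, IFIT2 and IFIT3 and between 43.4 and 48.4 CPM for IFIT5.

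The library names carry a code that takes 2 values, whose meaning is not stated: replicate 1 of both groups has one and replicates 2 and 3 have the other. The difference in mean log2 CPM between the groups was 3.65 for IFIT1 in the pair with the first code and 3.93 in the libraries with the second. The corresponding values were 3.40 and 3.36 for IFIT2 and 3.71 and 3.58 for IFIT3. IFIT5 was the member whose values differed most between the codes, 2.76 and 3.27, and its n.t. library with the first code was its highest n.t. value.

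Markers of cell types were read in the same libraries, and at an FDR under 0.01 alone 31.9% of all genes tested were higher and 32.1% lower. Markers of the promyelocyte other than ELANE were present in n.t. cells. They were led by MPO, at 14608 ± 1491 CPM in n.t. and 7422 ± 127 CPM in maltonis-treated cells (SD, n = 3). ELANE was near the floor in n.t. libraries, at 3, 6 and 2 counts, and had 406, 565 and 409 counts after maltonis (log2 fold change 7.07). CTSG rose from 109 ± 5.34 to 553 ± 19.9 CPM and LYZ from 104 ± 3.17 to 282 ± 22.6 CPM. The summed level of 10 such markers, most of it MPO, was 14048 to 16520 CPM in n.t. and 9011 to 9465 CPM in treated libraries. Of the 10, 5 were higher, 4 were lower and 1 (PRTN3) did not pass. Of these calls, CSF3R (higher) was lost without any library other than n.t. replicate 1 (edgeR FDR 0.0112 to 0.0340), and SPI1 (lower) without any library other than maltonis replicate 1 (edgeR FDR 0.0120 to 0.0284), on total counts (0.0223) and with upper-quartile scaling (0.0144).

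Markers of plasmacytoid dendritic cells, which are strong interferon producers, summed to 15.1 to 19.7 CPM in n.t. and 16.0 to 17.0 CPM in treated libraries. Most of that sum was NRP1, at 13.4 ± 1.38 and 15 ± 0.506 CPM, which did not pass, while TCF4 fell from 4.02 ± 0.959 to 1.39 ± 0.312 CPM (edgeR FDR 0.000218). The defining CLEC4C was at 0 in every library, and IL3RA was also listed at 0 but lies in a region shared by the X and Y chromosomes, where reads can go uncounted. The T cell list summed to 43.4 to 45.7 CPM and 15.3 to 16.0 CPM, nearly all of it CD3D, with TRAT1 at 0 and CD3E at 2 counts or fewer. The B cell list summed to 19.3 to 29.2 CPM and 10.9 to 13.2 CPM, mostly CD79B, which fell from 21.0 ± 4.4 to 10.1 ± 1.29 CPM, while PAX5 rose from 0.149 ± 0.0109 to 0.768 ± 0.110 CPM and MS4A1 was at 0. The part of these marker levels in the IFIT values was not tested.

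Summed over the family, the IFIT genes took 27.1, 27.0 and 25.8 CPM without scaling in n.t. cells and 319.9, 339.3 and 342.8 CPM after maltonis. The share thus went from 26.7 ± 0.714 to 334 ± 12.3 CPM (SD, n = 3), 12.5-fold. The groups did not overlap, and a two-sided exact permutation test gave p = 0.1, the smallest value that 3 against 3 libraries allow.

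The balance between the members was compared next, as shares of the summed IFIT counts of a library. Within the family, IFIT1 held 24.7%, 21.9% and 22.7% of the IFIT counts in n.t. cells and 28.7%, 29.1% and 28.9% after maltonis. IFIT5 held 22.6%, 18.6% and 16.6% in n.t. cells and 14.2%, 14.9% and 14.2% after maltonis. For both genes the groups did not overlap. IFIT3 held 24.3%, 27.9% and 28.2% before and 29.5%, 28.5% and 28.5% after treatment, a separation of the nearest libraries smaller than the spread of the n.t. group. IFIT2 held 28.3%, 31.6% and 32.5% and then 27.7%, 27.6% and 28.4%, and its groups overlapped.

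Ratios between members within a library do not depend on scaling, and 6 pairs were compared with the two-sided exact permutation test, where 0.1 is the smallest possible p and 0.15 its value after Benjamini-Hochberg adjustment over the 6 pairs. None could therefore pass 0.05, and the groups did not overlap in 4 of the 6. The ratio of IFIT1 to IFIT5 counts went from 1.21 to 2.0, a 1.66-fold change (p = 0.1 by the exact test, adjusted 0.15, higher in 3 of 3 treated libraries), and its log2 change was 0.89 and 0.66 by code. The ratio of IFIT3 to IFIT5 went from 1.40 to 2.0 (exact p = 0.1, adjusted 0.15), but its log2 change was 0.95 in the libraries with the first code and 0.30 in those with the second, and 0.33 without n.t. replicate 1. The log2 ratio of IFIT1 to IFIT2 differed by 0.47 and that of IFIT2 to IFIT3 by -0.25 (maltonis minus n.t., exact p = 0.1, adjusted 0.15 for each). By code, the first of these was 0.25 and 0.57 and the other -0.31 and -0.22. IFIT1 against IFIT3 and IFIT2 against IFIT5 overlapped between the groups, with log2 changes of 0.22 and 0.27 (exact p = 0.3, adjusted 0.3). The change of IFIT1 against IFIT3 was -0.06 in the libraries with the first code and 0.36 in those with the second, and without n.t. replicate 1 it was 0.33 and the groups no longer overlapped (exact p = 0.2, the smallest that 2 against 3 allow). The change of IFIT2 against IFIT5 was 0.64 and 0.08 by code, 0.09 without n.t. replicate 1, and 0.41 without n.t. replicate 3, where the groups no longer overlapped (exact p = 0.2). The SD of the log2 ratios was 0.0265 to 0.0572 in treated and 0.0209 to 0.340 in n.t. libraries. It was smaller in the treated group for each pair except IFIT2 and IFIT3. Counting error was also larger in n.t. libraries, at 6.64% to 8.24% of a member's level, against 2.06% to 2.92% in treated libraries. The part of counting error in these SD values was not tested.

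**Figure D2:**
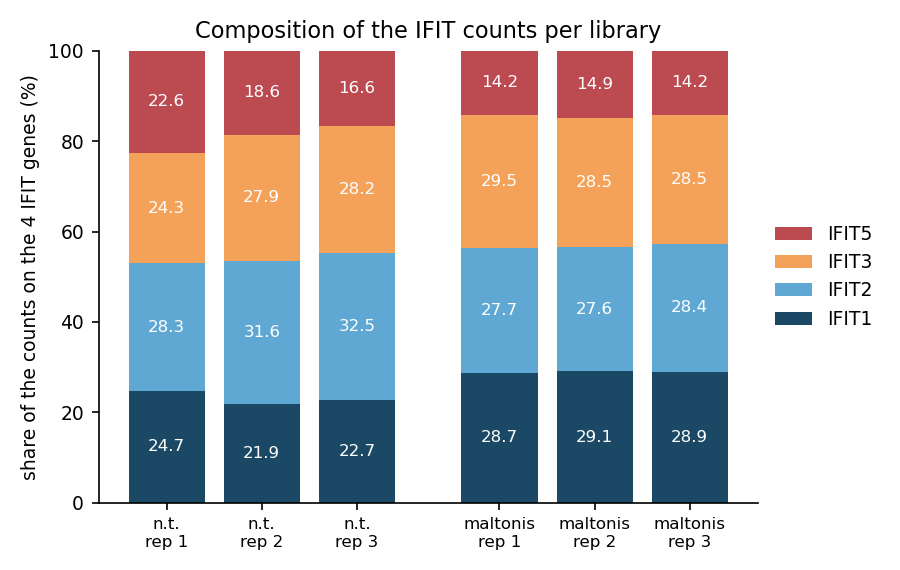
Share of the counts on the 4 IFIT genes taken by each gene (%), 1 stacked bar per library, not treated (n.t.) on the left and 10 µM maltonis on the right. IFIT5 takes 16.6% to 22.6% in n.t. and 14.2% to 14.9% in treated libraries, whereas IFIT1 goes from 21.9% to 24.7% up to 28.7% to 29.1%.

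Levels between genes were compared per length, as RPKM over the exons linked to RefSeq transcripts. In n.t. cells the order by RPKM was IFIT3 (2.82 ± 0.218), IFIT2 (2.45 ± 0.159), IFIT1 (1.39 ± 0.096) and IFIT5 (1.34 ± 0.234) (SD, n = 3). IFIT1 and IFIT5 overlapped there, and the highest library of IFIT2 and the lowest of IFIT3 were both at 2.58 RPKM after rounding. After maltonis the RPKM order was the same and no neighbours in it overlapped: IFIT3 was at 35.0 ± 0.827, IFIT2 at 25.6 ± 1.36, IFIT1 at 20.1 ± 0.941 and IFIT5 at 11.5 ± 0.648. IFIT5 was the member nearest to the study's limit of 10, with 10.8, 12.1 and 11.7 RPKM in the treated libraries. The place of IFIT1 depends on its length: over 4613 bp of RefSeq-linked exons it came after IFIT3 and IFIT2, and with its shortest RefSeq-linked transcript, 1880 bp, it came first at 3.41 RPKM in n.t. and 49.2 RPKM in treated cells.

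The members share little sequence over which reads could be confused. In the annotated transcripts no run of 50 bases was shared between any of the 4 genes. IFIT1 shared 47 of its 4612 runs (1.02%) with some other gene, 38 of them with IFIT1B, while IFIT2 shared 7.91%, IFIT3 3.64% and IFIT5 none. IFIT1B itself had 0, 1 and 1 counts in n.t. and 1, 2 and 0 counts in treated libraries, all at or under the floor of 3, so that no change could be read for this paralog at this depth.

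The chromosomal neighbourhood of the family was mixed. Within 500 kb of the cluster, 14 further genes were listed, 7 had enough counts to be tested, 2 were higher and 3 were lower, against 31.9% of all genes tested that were higher and 32.1% that were lower. LIPA, which encodes the lysosomal acid lipase, overlaps the cluster and rose from 66.6 ± 2.90 to 206 ± 19.1 CPM (log2 fold change 1.63, SE 0.0799, edgeR FDR 3.74e-07). FAS, the death receptor, rose with a log2 fold change of 0.46 (edgeR FDR 0.00166), although the FDR was 0.0130 without maltonis replicate 3. KIF20B, a mitotic kinesin, fell from 227 ± 7.84 to 103 ± 0.662 CPM, and STAMBPL1 and ANKRD22 fell by 0.52 and 0.40 on the log2 scale. The call of ANKRD22 was lost on total counts (edgeR FDR 0.0102). ACTA2 and PANK1 did not pass, with edgeR FDR values of 0.0524 and 0.0214. LIPA lies on the minus strand, and some of its annotated transcripts run across IFIT2, IFIT3 and IFIT1. Where exons overlap, reads from the opposite strands could be told apart only if counting used the strand. The sources used here do not state whether it did. Of 4096 runs of 50 bases in IFIT2 transcripts, 17 (0.415%) were shared with annotated LIPA transcripts. IFIT1 and IFIT3 shared none with LIPA.

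**Figure D3:**
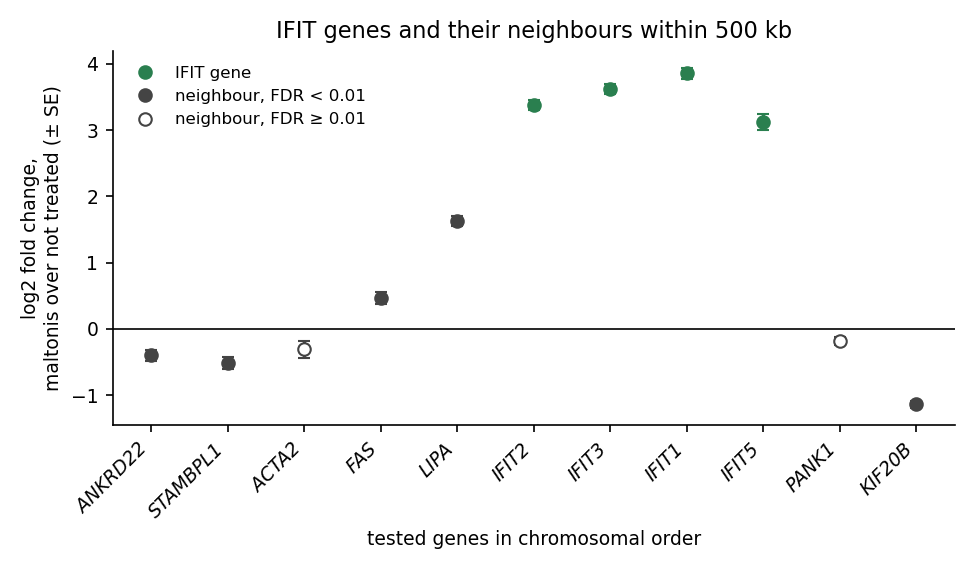
Log2 fold change (maltonis over not treated, ± SE) of the IFIT genes in green and of the tested genes within 500 kb in grey, in chromosomal order and not to distance. Filled points have an FDR under 0.01, and the IFIT genes lie between 3.13 and 3.86 while the neighbours lie between -1.14 and 1.63.

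The ligands that induce the family were near the detection limit. Of 21 interferon genes, 12 had no count in any library and only IFNB1, which encodes interferon beta, had enough counts to be tested. IFNB1 had 3 counts in each n.t. library and 19, 17 and 14 counts in the treated ones, which is above the floor in every treated library. IFNB1 was higher after maltonis, with a log2 fold change of 2.56 (SE 0.468, edgeR FDR 0.00102) and a ratio of pooled CPM of 6.04 (95% exact interval 2.94 to 14.0, counting error only). The untested interferon genes had at most 6 counts in a library, so that no change in them could be read from these counts.

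The receptors and JAK-STAT genes relay interferon to the IFIT promoters. Of 12, 11 were tested, 7 were higher and 2 lower, beside 31.9% higher and 32.1% lower over all genes tested, with a median log2 fold change of 0.63 against 0.01 over all genes. In the complex that binds the response element, IRF9 rose from 6.49 ± 0.585 to 48.0 ± 2.12 CPM (log2 fold change 2.90) and STAT2 from 57.1 ± 1.14 to 198 ± 2.64 CPM (1.80), each with an edgeR FDR of 4.36e-08 or less. The kinase TYK2 rose by 1.02 on the log2 scale and the receptor chain IFNAR1 by 0.66, whereas IFNAR2 was at 0.06 (edgeR FDR 0.658). IFNGR2, a chain of the interferon gamma receptor, fell by 1.08 and the kinase JAK1 fell by 0.37 on the log2 scale. The kinase JAK2 rose by 0.34, a call that was lost without maltonis replicate 2 (edgeR FDR 0.0153) or maltonis replicate 3 (0.0135).

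Of 13 genes of nucleic acid sensing and interferon induction, 10 were higher and 3 were lower, beside 31.9% higher and 32.1% lower over all genes tested, with a median log2 fold change of 0.60. The RNA helicases rose, DHX58 (LGP2) by 3.83, DDX58 (RIG-I) by 2.21 and IFIH1 (MDA5) by 1.68 on the log2 scale. TLR3, an endosomal receptor of double-stranded RNA, went from 8, 4 and 7 counts to 17, 22 and 23 (log2 fold change 1.80), and its call was lost without n.t. replicate 2 or 3 or maltonis replicate 1 or 3 (FDR 0.0129 to 0.0148). IRF7, a transcription factor that amplifies interferon expression, went from 17.6 ± 2.32 to 99.0 ± 8.58 CPM (log2 fold change 2.50, edgeR FDR 2.00e-07), while IRF3, its constitutive relative, rose by 0.53. The lower genes were TMEM173 (STING), which fell by 1.48, the kinase IKBKE, which fell by 1.38, and TICAM1, an adaptor of TLR3, which had at most 29 counts in a library and lost its call without any library other than maltonis replicate 1 (FDR 0.0114 to 0.0169).

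Of 8 genes that restrain or accompany interferon signalling, 4 were higher and 1 was lower, beside 31.9% higher and 32.1% lower over all genes tested, with a median log2 fold change of 0.45. The JAK inhibitor SOCS1 rose by 3.07, the ubiquitin-like modifier ISG15 by 2.30 (19.0 ± 3.11 to 92.8 ± 9.42 CPM) and USP18, which removes ISG15 and blocks the receptor, by 1.51 on the log2 scale. PTPN6, a phosphatase, fell by 0.90.

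The cap enzymes give host RNA the methylated end that IFIT1 spares. Of 7 genes, 3 (42.9%) were higher and 2 (28.6%) lower, which is near the 31.9% higher and 32.1% lower over all genes tested, with a median log2 fold change of 0.36 and no value beyond 0.88 in size. DOM3Z (DXO), which removes incomplete caps, and PCIF1, which methylates the first adenosine, rose by 0.88 and 0.57. FTSJD1 (CMTR2), which methylates the sugar after the cap-adjacent one, rose by 0.66. FTSJD2 (CMTR1), which methylates the cap-adjacent sugar itself, was at 0.06 (edgeR FDR 0.371). The capping enzyme RNGTT fell by 0.71, and RNMT, the cap guanine methyltransferase, fell by 0.39 (edgeR FDR 0.00587), a call that was lost when any library other than n.t. replicate 1 was left out (FDR 0.0134 to 0.0261).

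The subunits of eIF3, the initiation factor bound by IFIT1 and IFIT2, showed no common direction. Of 13 subunits, 12 were tested, 2 (16.7%) were higher and 3 (25%) lower, both under the 31.9% higher and 32.1% lower over all genes tested, with a median log2 fold change of -0.01. EIF3F and EIF3L rose by 0.86 and 0.43, EIF3J and EIF3B fell by 0.89 and 0.56, and EIF3E was at 0.01 (edgeR FDR 0.915). The call of EIF3J was lost without maltonis replicate 1 (FDR 0.0155) or replicate 2 (FDR 0.0102). EIF3C had at most 1 count in a library, and its near-identical copy EIF3CL makes this value uncertain.

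Among other effectors of the same response, 5 of the 6 OAS and MX genes were higher and 1 was lower, beside 31.9% higher and 32.1% lower over all genes tested. The 5 also passed the fold limit, as did 9.96% of all genes, and the list's median log2 fold change was 3.57, against 3.5 for the IFIT genes. Their values ran from -0.20 to 5.34, and those of the family from 3.13 to 3.86. OAS3, which makes the activator of RNase L, rose from 1.11 ± 0.115 to 45.6 ± 4.24 CPM (log2 fold change 5.34). MX1, a GTPase that blocks viral replication, rose from 0.299 ± 0.0520 to 4.93 ± 0.523 CPM (log2 fold change 4.0). It had 5, 13 and 9 counts in the n.t. libraries, against the floor of 3. OAS1 and OAS2 rose by 3.62 and 3.53 and OASL by 1.67 on the log2 scale. MX2 fell by 0.20 (edgeR FDR 0.00769), a call that was lost without n.t. replicate 2 (FDR 0.0319), maltonis replicate 2 (FDR 0.0258) or maltonis replicate 3 (FDR 0.0140) and on total counts (FDR 0.191). In n.t. cells the 4 IFIT genes summed to 26.9 to 28.5 CPM and after maltonis to 305 to 330.4 CPM. The difference between the families was not tested.

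**Figure D4:**
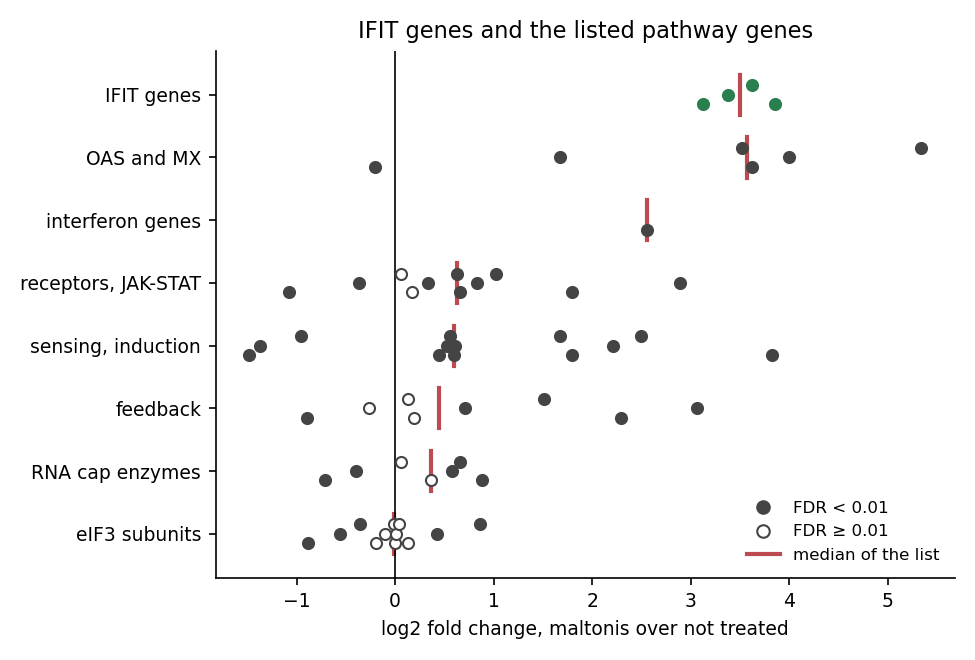
Log2 fold change (maltonis over not treated) of the IFIT genes (green) and of the tested genes of each list (grey), 1 point per gene, with filled points for an FDR under 0.01 and a red bar for the median of a list. The IFIT median of 3.5 and the OAS and MX median of 3.57 lie right of the medians of the receptor, sensing, feedback, cap and eIF3 lists, which lie between -0.01 and 0.63.

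The genes whose profile was most like the mean of the 4 members were found by the Euclidean distance between log2 CPM profiles over the 6 libraries, each centred on its own mean. The 8 nearest of all genes tested were LACC1 (distance 0.117), TXLNB (0.143), CAPN3 (0.147), PARP14 (0.209), LTK (0.223), LOC100129961 (0.225), HIST1H1A (0.233) and SAMD9L (0.287). By the same measure the members themselves were at 0.224 for IFIT2, 0.260 for IFIT3, 0.445 for IFIT1 and 0.551 for IFIT5, so that LACC1, TXLNB, CAPN3, PARP14 and LTK lay closer to the mean of the family than any member did. PARP14, an ADP-ribosyltransferase, was the most abundant of the 8, at 21.8 ± 1.65 CPM in n.t. and 253 ± 6.48 CPM in treated cells, and SAMD9L, an interferon-inducible gene, went from 9.72 ± 0.784 to 96.1 ± 2.96 CPM. The 8 were chosen for a small distance, and their log2 fold changes were 3.31 to 3.58, against 3.13 to 3.86 for the members. The distance was taken over 6 libraries in 2 groups and carries no test.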

How the data were processed

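RNA-seq libraries were prepared from total RNA with a stranded kit. The deposited tables hold whole-number read counts per gene symbol, not normalized, 1 table per library. The submitters' processing notes name TopHat, Bowtie2, HTSeq and hg19, while the annotation and the strand setting are not given in the sources used here.

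Groups and replicate numbers are those of the labels. Replicates differed by more than sampling noise (chi-square per degree of freedom 4.15 to 33.1). Counts were fitted with edgeR 4.0.16 in R 4.3.3 (TMM, filterByExpr, quasi-likelihood test, no covariate, all 6 libraries, Benjamini-Hochberg adjustment over 13209 genes). SE is the log2 fold change divided by the square root of F. Lengths came from GENCODE 29 and were found for 21675 symbols. Scripts were tested on simulated data. Alternatives were other scalings, filters, tests (DESeq2 1.42.0 among them) and lengths, the replicate number or the library code as a covariate, and each library left out.

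The members and the gene lists were chosen with earlier results of these data known. Named genes were the members, IFIT1B, neighbours within 500 kb, the 4 largest changes and the defining genes of each list, and the 8 nearest profiles. IFNAR1, IFNAR2, JAK1, JAK2, IKBKE, TICAM1, RNMT, OASL and MX2 were added after their values were seen. No window of IFIT2, OAS2, OASL or MX2 was in the promoter table used here. One gene of the pathway lists is not reported here.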

Additional observations from a re-analysis of the deposited data

How the results depend on the processing

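All 4 IFIT genes stayed past the FDR and fold limits in each of the 17 alternative fits, with log2 fold changes of 3.81 to 3.98 (IFIT1), 3.32 to 3.5 (IFIT2), 3.56 to 3.74 (IFIT3) and 3.0 to 3.28 (IFIT5) and an FDR of at most 4.14e-06. Without TMM, on total counts, the median of all genes moved by 0.119 on the log2 scale. These data do not settle whether the replicate numbers pair the libraries. The deviations of same-numbered libraries correlated at 0.301, 0.0852 and 0.161, and not every library correlated best with its own number. With the replicate block the log2 fold changes were 3.86, 3.38, 3.63 and 3.14 in the order above. The block moved no count by over 1.5 times and ended the call of TICAM1 (FDR 0.0126). With it the promyelocyte marker PRTN3 passed (edgeR FDR 5.87e-05). Calls lost when single libraries were left out had a lower FDR with the block for SPI1 (5.81e-05), CSF3R (0.00037), RNMT (0.000145) and EIF3J (3.75e-06). The count of interferon genes called higher was 0 with a minimum of 1 CPM in 3 libraries, which removes IFNB1. The count of cap enzymes called lower was 1 on total counts and with upper-quartile scaling, and 1 to 2 with each library left out, since RNMT lost its call. The count of OAS and MX genes called lower was 0 on total counts, with upper-quartile scaling, with edgeR's likelihood ratio test, with no filter and with 1 CPM, and 0 to 1 with each library left out, since MX2 lost its call (FDR 0.0107 to 0.191). Neighbours called higher were 1 to 2 with each library left out (FAS without maltonis replicate 3). The RPKM moved with the length: the shortest transcript, a length chosen after seeing the data, gave 3.41 and 49.2 for IFIT1 and 37.6 for treated IFIT3, all exons gave 2.09 and 21.8 for IFIT2, and the longest transcript gave 24.2 for treated IFIT2 and 37.0 for treated IFIT3. Interferon genes other than IFNB1 and the paralog IFIT1B had too few counts for a test.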
